A study of Mus musculus with 16 samples.

Results

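AgRP neurons of the arcuate nucleus were picked out of single-cell profiles of the hypothalamus-POA, the block of ventral forebrain that holds the hypothalamus and the preoptic area. The neurons are called Agrp neurons here and were chosen cell by cell from their own transcripts. A cell was kept when its genes numbered above 200 and below 4000 and under 15% of its unique molecular identifiers (UMIs) lay on mitochondrial mt- genes, and it was called a neuron when at least 3 of the 8 genes *Snap25*, *Syt1*, *Stmn2*, *Snhg11*, *Meg3*, *Celf4*, *Map1b* and *Ndrg4* were detected. A neuron was an Agrp neuron with at least 5 *Agrp* UMIs, or with at least 2 *Agrp* and 3 *Npy* UMIs, provided that it had under 8 *Pomc* UMIs. The rule found 55 cells, which is 0.568% of 9679 neurons and 0.0988% of 55675 kept cells. *Agrp*, *Npy*, *Pomc*, the 8 neuronal genes and the mt- genes chose the cells, so their values within Agrp neurons are described and not tested. *Agrp* and *Npy* summed over all neurons, which were chosen without either gene, were compared between conditions.

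AgRP neurons lie in the arcuate nucleus at the base of the hypothalamus and are known for driving feeding. They release agouti-related peptide, an inverse agonist of melanocortin receptors, together with neuropeptide Y and the fast inhibitory transmitter GABA. Neighbouring *Pomc* neurons act in the opposite direction through the melanocortin peptides made from the *Pomc* precursor, and both populations sense leptin, insulin and other signals of energy state.

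The 16 libraries came from 16 female mice, 1 library per mouse, on a mixed CD-1;129P2 background, with treatment started at 8 to 10 weeks of age. Wild-type mice were Cre-negative littermates, and Esr1cKO mice carried floxed *Esr1* alleles, the gene of estrogen receptor alpha, and a Cre transgene driven by *Nkx2-1*, so that the deletion is expected only in cells with a history of *Nkx2-1* expression. Each mouse received daily subcutaneous injections over 28 days of either corn oil or 0.1 mg/kg tamoxifen, a modulator of estrogen receptors. There were 3 wild-type oil, 5 wild-type tamoxifen, 4 Esr1cKO oil and 4 Esr1cKO tamoxifen mice. The dissociated tissue was profiled by Drop-seq, which tags the 3′ ends of transcripts in droplets with a cell barcode and a UMI, and the libraries held 2634253 to 8038158 UMIs. Reads from transcript ends cannot show whether the floxed exon was lost, so the deletion in Agrp neurons could not be checked.

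Before the results, 2 libraries have to be set apart. Wild-type oil replicate 3 and Esr1cKO tamoxifen replicate 3 had values of 59.5 and 57.3 on the first of the principal components over libraries, which took 45.3% of the variance over 10411 genes, while the other libraries lay between -21.0 and -1.08. These libraries held 4 and 5 Agrp neurons. A single library, Esr1cKO tamoxifen replicate 1, held 20 of the 55 cells. Counts of genes are therefore given below also without each of these libraries. Of 54478 distinct barcodes among the kept cells, 520 occurred in more than 1 library, including the barcode of 1 Agrp neuron, and no barcode was shared between Agrp neurons.

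The 2 defining genes were used by the rule, so their presence is a description and no check of the label, which was read on the genes outside the rule described further on. *Agrp* (mm10, chromosome 8, 105566695 to 105579845) and *Npy* (chromosome 6, 49822710 to 49829507, plus strand) were both found in every one of the 55 cells. *Agrp* ran from 2 to 64 UMIs per cell with a median of 9, and *Npy* from 6 to 184 with a median of 44. The captured *Npy* molecules outnumbered those of *Agrp* in 54 of 55 cells, and the exception was a cell of wild-type tamoxifen replicate 1 with 28 *Agrp* and 15 *Npy* UMIs.

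At the edge of the rule, 9 cells entered with 2 to 4 *Agrp* UMIs, of which 1 had 2, 5 had 3 and 3 had 4, and 6 cells had exactly 5. Outside it, 41 neurons had 1 *Agrp* UMI, 1 had 2 and 1 had 3, and the last 2 had no *Npy*. The 55 cells held 731 of the 815 *Agrp* UMIs of all kept cells (89.7%) and 2857 of the 4721 *Npy* UMIs (60.5%). A further 77 neurons had at least 3 *Npy* UMIs and no *Agrp*. *Agrp* was found as a single UMI in 20 cells with none of the 8 neuronal genes, or 0.0687% of them, and with 1 to 3 UMIs in the 43 other neurons, or 0.447%. *Pomc* was found in 5 Agrp neurons, with 1 UMI each.

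**Figure D1:**
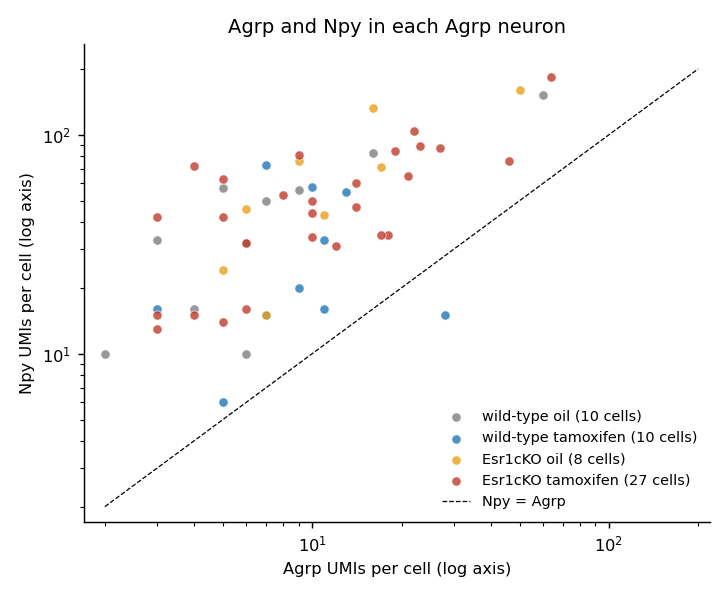
Each point is 1 of the 55 Agrp neurons, with its *Agrp* UMIs on the horizontal and its *Npy* UMIs on the vertical axis, both logarithmic, coloured by group; the dashed line marks equal counts. All points but 1 lie above the line, and the groups are intermixed along both axes.

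Scaled to the depth of each cell, the levels of both peptides were related. Across the 55 cells, *Agrp* and *Npy* per 10000 UMIs had a Pearson r of 0.621 and a Spearman coefficient of 0.530, given as a description since both are divided by the same depth and the cells come from shared libraries. A minimum of *Agrp* or *Pomc* UMIs favours deep cells, so the depth of cells chosen in this way is partly set by the rule. Agrp neurons had a median of 3936 UMIs (755 to 10129) and 2283 genes against 1721 UMIs and 1193 genes in the other neurons and 3304 UMIs in 55 *Pomc* neurons, defined as neurons with at least 8 *Pomc* UMIs. Their median share of mt- UMIs was 2.37%, against 4.26% in the other neurons. Scrublet called 1 of the 55 cells a doublet.

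Transcripts that mark other cell types were few. Markers of astrocytes summed to 3.03 UMIs per 10000 in Agrp neurons and 11.9 in the other neurons, with all 8 markers present and *Aldoc* the most abundant at 25 UMIs. Markers of microglia came to 2 UMIs, with 7 of 8 markers at 0. Endothelial markers gave 103 UMIs, of which 84 were *Bsg*, and the defining gene *Cldn5* was at 0. Ependymal and tanycyte markers gave 5 UMIs and mural markers 16. Oligodendrocyte precursor markers gave 68 UMIs, of which 48 were *Ptprz1*, with *Olig2* at 0. Oligodendrocyte markers reached 12.3 UMIs per 10000, below the 25.2 of the other neurons.

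The share of Agrp neurons among neurons did not differ detectably between the conditions. In wild-type oil mice the 3 libraries held 1, 5 and 4 Agrp neurons, or 0.285%, 0.864% and 0.789% of neurons. In wild-type tamoxifen mice the 5 libraries held 4, 4, 1, 0 and 1, or 0.442%, 0.686%, 0.159%, 0% and 0.182%. In Esr1cKO oil mice they held 3, 0, 4 and 1, or 0.421%, 0%, 0.483% and 0.175%. In Esr1cKO tamoxifen mice they held 20, 0, 5 and 2, or 2.85%, 0%, 0.612% and 0.412%. The groups overlapped throughout, and Esr1cKO tamoxifen replicate 1 alone lay above all the rest, with an exact Clopper-Pearson interval at 95% confidence of 1.75% to 4.37%, which covers counting error only.

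As group means, the share was 0.646% ± 0.315 (SD, n = 3) in wild-type oil, 0.294% ± 0.271 (n = 5) in wild-type tamoxifen, 0.270% ± 0.224 (n = 4) in Esr1cKO oil and 0.968% ± 1.28 (n = 4) in Esr1cKO tamoxifen mice. Without Esr1cKO tamoxifen replicate 1 the last mean was 0.341% ± 0.312 (n = 3). Two-sided exact permutation tests gave p=0.143 for the tamoxifen effect in wild-type mice, where 0.0179 is the smallest p this design allows, and p=0.429 in Esr1cKO mice, where it is 0.0286. For Esr1cKO against wild-type mice the exact permutation p was 0.143 under oil and 0.317 under tamoxifen, and the Benjamini-Hochberg adjusted values over the 4 tests ran from 0.286 to 0.429. Without the 2 libraries that stand apart, the exact permutation p ran from 0.304 to 0.429. Without wild-type oil replicate 1 the exact permutation p was 0.0476 for tamoxifen in wild-type mice, the smallest possible there, and 0.133 after adjustment. With at least 10 *Agrp* UMIs the sign of that difference changed, to 0.0179 percentage points.

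**Figure D2:**
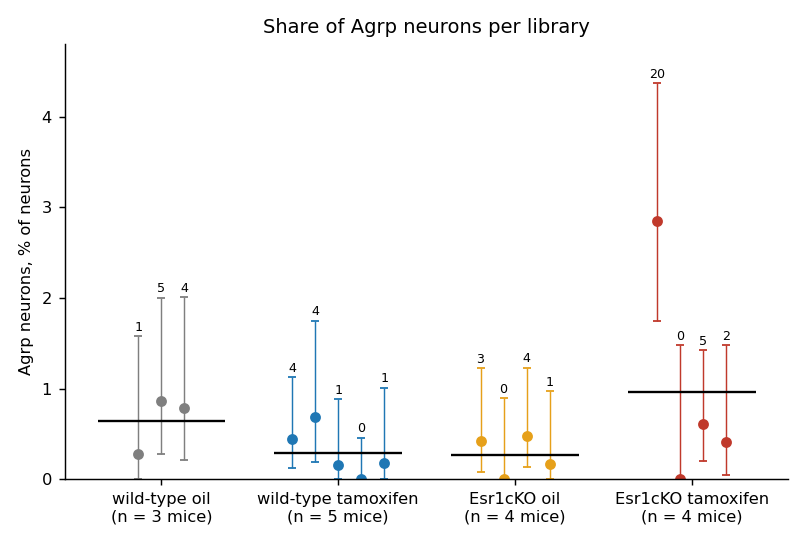
The share of Agrp neurons among the neurons of each library (percent) is plotted by group, with points for mice, bars for exact 95% intervals, the number of Agrp neurons above each bar and a line at the group mean. The library with 20 Agrp neurons, at 2.85%, stands above the other 15, and the 4 groups overlap.

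Summed over all neurons of a mouse, with no rule on *Agrp*, the transcript was highest in the library with the most Agrp neurons. *Agrp* was at 14.8, 16.3 and 70.5 CPM (UMIs scaled to a common library total) in wild-type oil, at 36.8, 33.4, 4.89, 1.88 and 11.005 in wild-type tamoxifen, at 22.6, 0, 42.6 and 5.47 in Esr1cKO oil and at 164, 0, 48.8 and 39.1 in Esr1cKO tamoxifen libraries. In such sums, fewer Agrp neurons and less *Agrp* RNA per neuron cannot be told apart. The log2 difference of tamoxifen from oil was -0.995 ± 0.980 (SE) in wild-type and 1.79 ± 0.91 in Esr1cKO mice, and the interaction was 2.78 ± 1.34, none of which passed edgeR's quasi-likelihood test. Of 13671 genes tested in this fit of all 16 libraries, 0 were called in any of the 5 contrasts (0% in each), with 431 to 756 genes at an unadjusted p under 0.05, and the adjusted p of *Agrp* and *Npy* ran from 0.976 to 1. DESeq2 called 2 genes for Esr1cKO against wild-type mice under tamoxifen and 0 in the other contrasts. The sign for wild-type mice rested on 1 library: without wild-type oil replicate 3 the *Agrp* difference was 0.19 and the interaction 1.60. Without Esr1cKO tamoxifen replicate 1, the library with 20 Agrp neurons, the difference in Esr1cKO mice was 0.84 and the interaction 1.83, and without Esr1cKO oil replicate 3 the former was 2.70.

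*Npy* over all neurons was at 69.8, 127 and 310.2 CPM in wild-type oil, 78.6, 114, 206, 42.7 and 99.8 in wild-type tamoxifen, 262, 66.0, 207 and 47.9 in Esr1cKO oil and 749.7, 107, 189 and 174 in Esr1cKO tamoxifen libraries. The groups overlapped apart from the single value of 749.7 in the library with 20 Agrp neurons. The log2 difference of Esr1cKO from wild-type mice under tamoxifen was 1.54 ± 0.61 for *Npy* and 1.95 ± 0.87 for *Agrp*, and neither was called. Without Esr1cKO tamoxifen replicate 1 these were 0.61 and 0.99.

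Within Agrp neurons the level of the 2 peptides, which the rule bounds from below, also varied between mice. *Agrp* per 10000 UMIs of a library's Agrp neurons was 26.2, 10.9 and 36.8 in wild-type oil, 30.6, 23.8, 14.4 and 31.9 in wild-type tamoxifen, 31.5, 38.0 and 6.09 in Esr1cKO oil and 32.2, 59.1 and 49.9 in Esr1cKO tamoxifen libraries. *Npy* per 10000 UMIs was 43.6, 66.6 and 143, then 50.5, 60.9, 150 and 185, then 139, 182 and 29.2, and then 134, 194 and 175 in the same order. All groups overlapped for *Npy*, and for *Agrp* all but the tamoxifen groups of the 2 genotypes, whose nearest values were 32.2 and 31.9. Nothing is read from these levels, since *Agrp* chose the cells and several libraries held 1 or 2 of them. The lowest *Agrp* and *Npy* values came from the 1 Agrp neuron of Esr1cKO oil replicate 4.

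To ask which genes set Agrp neurons off from the neurons around them, UMIs were summed over the Agrp neurons and over the other neurons of the same library. With at least 5 Agrp neurons per library, 3 libraries and 30 cells entered, and edgeR's quasi-likelihood test with the library as a block called 38 of 9507 genes higher (0.400%) and 125 lower (1.31%) at a Benjamini-Hochberg adjusted p under 0.05. With at least 3 per library, 8 libraries and 49 cells entered, 2 per group, and 108 of 8643 genes were higher (1.25%) and 601 lower (6.95%). The median log2 fold change over all genes tested was -0.33 in 3 libraries and -0.38 in 8. When the sums were scaled by library totals in place of TMM, these medians were -0.13 and -0.12, and the splits were 124 higher and 125 lower in 3 libraries and 231 and 338 in 8. All 38 higher genes were called higher again with library totals, and 34 of them in the 8 libraries. The remaining 4 did not pass the filter on low counts there. In 3 libraries these 4 were at 10.5 CPM or less in the other neurons. They passed that filter only through their sums in Agrp neurons, so their calls are descriptions.

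Without Esr1cKO tamoxifen replicate 1, which supplied 20 of the 30 cells, 7 genes were higher and 43 lower, and the 7 were *Acvr1c*, *Arhgap6*, *Cited1*, *Irs4*, *Otp*, *Pcsk1n* and *Serpina3n*. Without wild-type oil replicate 2 the counts were 18 and 38, and without Esr1cKO tamoxifen replicate 3, which stands apart, they were 34 and 83. In the 8 libraries they were 57 and 696 without the largest library, with 28 of the 38 genes among the 57, and 46 and 380 without the 2 libraries that stand apart, with 27 of the 38 among the 46. Against GABAergic neurons alone, 61 genes were higher, including all 38, and 69 lower.

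One of the genes that set Agrp neurons off was *Cited1* (chromosome X, 102247378 to 102252181, minus strand), a transcriptional coregulator. Over the 8 libraries its level ran from 589 to 1325 CPM in Agrp neurons, with a median of 902, and from 33.2 to 96.8 in the other neurons, with a median of 74.8. The 2 ranges did not overlap, as held for 0.602% of all genes tested, and *Cited1* was higher in Agrp neurons of 8 of 8 libraries, as were 1.31% of all genes. Its log2 fold change was 3.55 ± 0.32 in 3 libraries (edgeR adjusted p=7.9e-26) and 3.48 ± 0.22 in 8. *Cited1* was found in 50 of 55 Agrp neurons (90.9%), 49.1% of *Pomc* neurons, 7.74% of other neurons and 0.203% of cells without neuronal genes.

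*Otp* (chromosome 13, 94875636 to 94885125, plus strand), a homeobox transcription factor of hypothalamic neuroendocrine lineages, ran from 66.2 to 708 CPM in Agrp neurons, with a median of 492, and from 19.4 to 36.6 in the other neurons. Wild-type tamoxifen replicate 2 gave the lowest value, and the ranges did not overlap. The log2 fold change was 3.92 ± 0.41 (adjusted p=1.9e-18 by edgeR) in 3 libraries and 3.79 ± 0.27 in 8. *Otp* was found in 38 of 55 Agrp neurons and in 0 of 55 *Pomc* neurons, a count of 0 that allows a share of up to 5.45% of cells with a UMI (3 counts of 55), for counting error only.

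*Irs4* (chromosome X, 141710998 to 141725217, minus strand), an insulin receptor substrate, ran from 334 to 667 CPM in Agrp neurons, with a median of 535, and from 35.9 to 80.0 in the other neurons. The ranges did not overlap, and the log2 fold change was 3.41 ± 0.36 in 3 libraries and 2.96 ± 0.26 in 8. *Acvr1c* (chromosome 2, 58267453 to 58357896, minus strand), which encodes the activin receptor ALK7, had the highest log2 fold change of the 20 genes named by the rule, 4.97 ± 0.50 in 3 libraries. It passed the filter on low counts only through its sums in Agrp neurons, so this rank is a description. Its level was uneven, from 0 in the 4 Agrp neurons of wild-type oil replicate 3 to 589 CPM in wild-type oil replicate 2, with a median of 282, against 5.46 to 12.6 CPM in the other neurons.

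**Figure D3:**
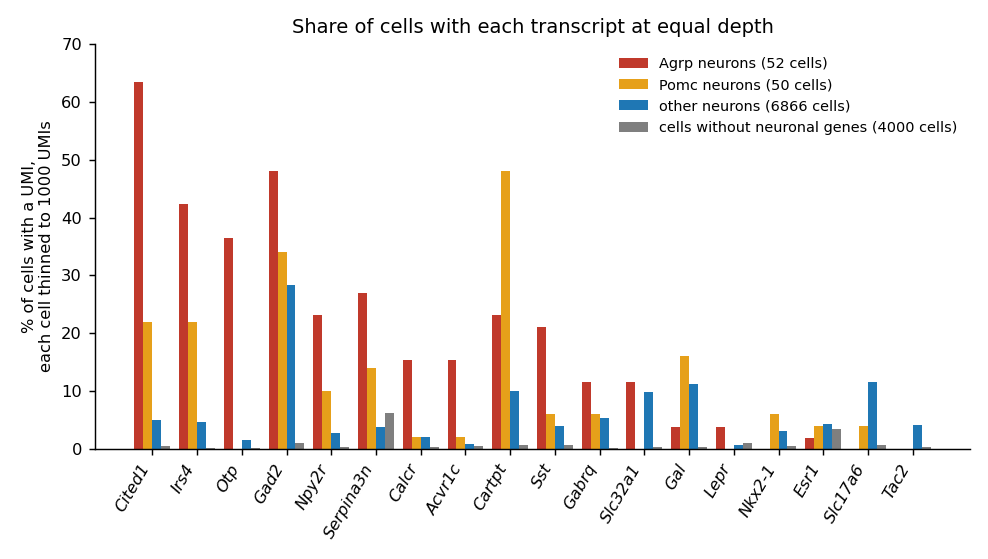
Bars give the percent of cells with at least 1 UMI of each gene after every cell was randomly thinned to 1000 UMIs, in 52 Agrp, 50 *Pomc* and 6866 other neurons and in a random 4000 cells without neuronal genes. In Agrp neurons *Cited1*, *Irs4* and *Otp* stand above the other neurons, at 63.5%, 42.3% and 36.5%, while *Slc17a6* and *Tac2* are at 0.

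Shares of cells were also compared at equal depth, because Agrp neurons were deeper than the rest. After thinning to 1000 UMIs, which left out 3 Agrp neurons, 2758 other neurons and 24514 cells without neuronal genes, *Cited1* was found in 63.5% of Agrp neurons and 5.04% of other neurons, *Irs4* in 42.3% and 4.72%, *Otp* in 36.5% and 1.54%, and *Acvr1c* in 15.4% and 0.83%. The order of the 2 populations was the same as without thinning for each of these genes. In cells without neuronal genes, which had a median of only 547 UMIs before thinning, the thinned shares of *Cited1*, *Irs4* and *Otp* were 0.45%, 0.15% and 0.075%.

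Receptors and the signals of energy state were read from a list of 30 receptors, of which 17 were tested in 3 libraries, with 3 higher and 0 lower. Of all genes tested there, 0.400% were higher and 1.31% lower. The median log2 fold change of the 17 was -0.77, against -0.33 over all genes. *Npy2r*, the Y2 receptor for neuropeptide Y, was at 60.1 to 354 CPM in Agrp neurons and 15.2 to 61.7 in the other neurons, with a log2 fold change of 3.00 ± 0.46 (edgeR adjusted p=3.3e-08). *Calcr*, the calcitonin receptor, was at 44.2 to 331 CPM against 15.1 to 37.1, with a log2 fold change of 2.64 ± 0.54. Both were higher in 8 of 8 libraries. The third receptor was *Acvr1c*, which passed the filter on low counts only through its Agrp sums.

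In the 8 libraries 15 receptors were tested, of which *Calcr* and *Npy2r* were higher and *Htr2c*, *Ntrk2*, *Oprk1* and *Prlr* lower. Among all genes in those libraries, 1.25% were higher and 6.95% lower. *Prlr*, the prolactin receptor, had 2 UMIs in all Agrp neurons and was found in 3.64% of them against 11.7% of other neurons, with a log2 fold change of -3.56 ± 0.72. *Htr2c*, a serotonin receptor, likewise had 2 UMIs and a log2 fold change of -3.13 ± 0.77. *Oprk1* was no longer called with library totals.

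Receptors for which AgRP neurons are known were sparse at this depth. *Lepr*, the leptin receptor, was found in 7 of 55 Agrp neurons (12.7%), from 6 libraries, and in 1.34% of other neurons, or 3.85% and 0.67% after thinning, with 0.95% in thinned cells without neuronal genes. *Ghsr*, the ghrelin receptor, was found in 2 of 55 Agrp neurons with 4 UMIs, and *Insr*, the insulin receptor, in 10 with 1 UMI each. The melanocortin receptor *Mc3r* was found in 5 and *Mc4r* in 1. *Ghr*, the growth hormone receptor, was found in 27 of 55 Agrp neurons (49.1%) and in 6.38% of other neurons, with a log2 fold change of 1.59 ± 0.57 that was not called in 3 libraries and 2.01 ± 0.36 (edgeR adjusted p=2.7e-06) in 8.

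Downstream of leptin and insulin, 2 of 22 genes tested were higher in 3 libraries and 0 lower, *Irs4* and *Foxo1*, with a list median of -0.22. All genes tested gave 0.400% higher and 1.31% lower in 3 libraries, and 1.25% and 6.95% in 8. *Foxo1*, a transcription factor held out of the nucleus by insulin signalling, had a log2 fold change of 2.97 ± 0.54 (edgeR adjusted p=1.1e-05) and was higher in 7 of 8 libraries. In the 8 libraries *Stat3*, the transcription factor that leptin activates, was also higher, by 1.48 ± 0.34 on the log2 scale and in 8 of 8 libraries, and *Ppargc1a* was lower, a call that was lost with library totals.

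Of 12 genes on the list of steroid receptors and cofactors that were tested, only *Cited1* was called in 3 libraries, and the list median was -0.20. Of all genes, 0.400% were higher and 1.31% lower in 3 libraries, with 1.25% and 6.95% in 8. In 8 libraries *Nrip1*, a corepressor of nuclear receptors, was lower as well (edgeR adjusted p=0.0044). There it had 0 UMIs in the Agrp neurons and 39.4 CPM in the other neurons, and it was found in Agrp neurons only outside these libraries. With library totals *Nr3c1*, the glucocorticoid receptor, was also higher in the 8. *Esr1* itself was found in 2 of 55 Agrp neurons (3.64%) with 4 UMIs in all, 3 of them in a cell of Esr1cKO oil replicate 1 and 1 in a cell of Esr1cKO tamoxifen replicate 1. It was found in 8.65% of other neurons, 16.4% of *Pomc* neurons and 2.65% of cells without neuronal genes. After thinning to 1000 UMIs the share in Agrp neurons was 1.92%, beside 3.35% in cells without neuronal genes. *Pgr*, the progesterone receptor, was found in 2 of 55 Agrp neurons. *Nkx2-1*, whose regulatory sequences drive the Cre transgene, had 0 UMIs in 55 Agrp neurons, which allows a share of up to 5.45% of cells with a UMI, and was found in 5.69% of other and 23.6% of *Pomc* neurons.

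Among 12 genes listed for AgRP neurons and not used by the rule, 8 were tested in 3 libraries, with 5 higher and 0 lower and a median log2 fold change of 2.68. The 5 included *Acvr1c*, which passed the filter on low counts only through its Agrp sums. In 8 libraries all 7 tested were higher, namely *Asb4*, *Calcr*, *Isl1*, *Npy2r*, *Otp*, *Serpina3n* and *Tbx3*. For comparison, 0.400% of all genes were higher in 3 libraries and 1.25% in 8. *Isl1* and *Tbx3*, transcription factors of arcuate neurons, were found in 27 and 25 of 55 Agrp neurons. *Serpina3n*, a serine protease inhibitor, had a log2 fold change of 2.72 ± 0.43 (edgeR adjusted p=7.7e-08) and was at 0 in Esr1cKO oil replicate 1 but between 50.5 and 679.7 CPM in the other 7 libraries. The list was written from what is known of the cell type, so its direction is not independent evidence.

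Transcription factors went both ways. Of 18 factors tested in 3 libraries, *Otp* was higher and *Dlx1* and *Zic1* lower, with a list median of -1.56. The shares over all genes were 0.400% higher and 1.31% lower in 3 libraries and 1.25% and 6.95% in 8. In 8 libraries *Isl1*, *Otp*, *Six6* and *Tbx3* were higher and *Dlx1*, *Dlx6*, *Foxp2*, *Nkx2-1*, *Six3* and *Zic1* lower. With library totals the counts in 8 libraries were 5 higher and 4 lower, and *Foxp2* and *Six3* were no longer called lower. Over all 8643 genes, library totals gave 231 higher and 338 lower there.

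**Figure D4:**
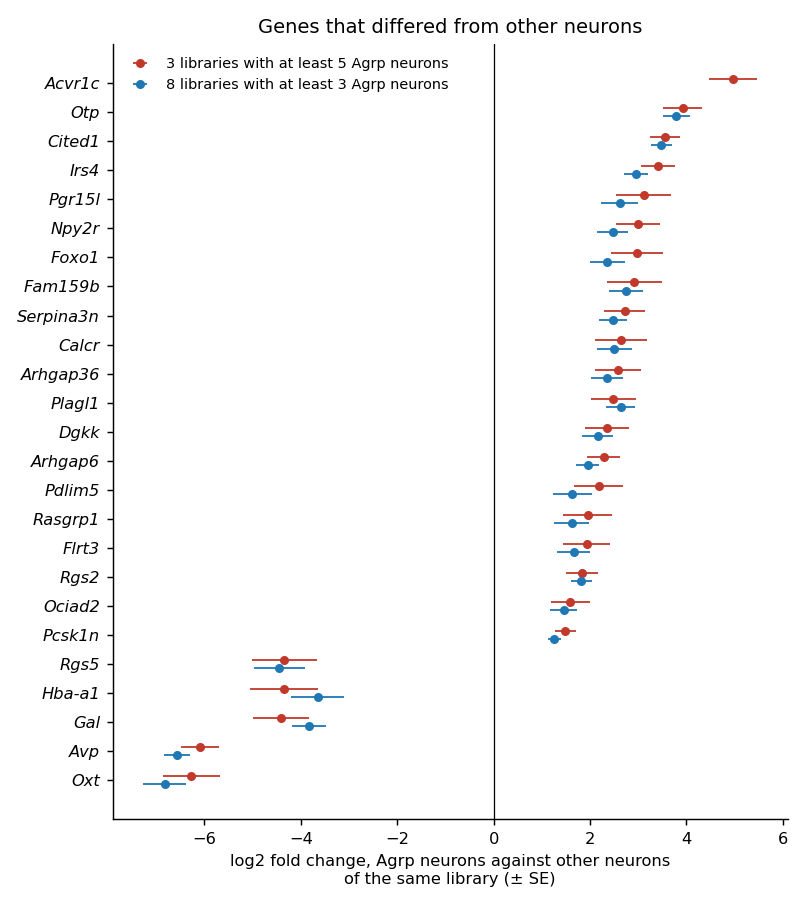
Points give the log2 fold change of Agrp neurons against the other neurons of the same library for the named genes with at least 1 UMI in Agrp neurons of the 3 libraries, with bars for SE, in 3 and in 8 libraries (*Acvr1c* was tested in 3 only). In 3 libraries the values range from -6.28 for *Oxt* to 4.97 for *Acvr1c*, and in 8 libraries *Oxt* is at -6.82. The 2 fits give the same sign for each gene they share.

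Among fast transmitters, Agrp neurons had the genes of GABA neurons and none of the vesicular glutamate transporter *Slc17a6*. At least 1 of *Gad1*, *Gad2* and *Slc32a1*, which encode the enzymes that make GABA and its vesicular transporter, was found in 50 of 55 Agrp neurons (90.9%), 56.4% of *Pomc* neurons, 42.4% of other neurons and 1.82% of cells without neuronal genes. At equal depth *Gad2* was found in 48.1% of Agrp, 34% of *Pomc* and 28.3% of other neurons. In summed UMIs the 3 genes were not called against the other neurons, which are partly GABAergic, with log2 fold changes in 8 libraries of -0.16 for *Gad1*, -0.16 for *Gad2* and -0.28 for *Slc32a1*. *Slc17a6* had 0 UMIs in all 55 Agrp neurons and was at 123 to 273 CPM in the other neurons of the 8 libraries, and 5.13% of all genes were lower in 8 of 8 and 2.57% without overlap. Against a floor of 3 UMIs over the group, it was at least 12.5-fold lower in the 8 libraries and at least 7.7-fold lower in the 3. *Slc17a6* was the only one of 9 transmitter genes called in 3 libraries, with a list median of -2.12, and *Slc18a2* and *Th* joined it in 8. Among all genes, 1.31% were called lower in 3 libraries and 6.95% in 8.

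Peptide precursors other than the defining pair were mostly low. Of 18 precursors tested in 3 libraries 0 were higher and 10 lower, with a list median of -6.18, and of 16 tested in 8 libraries 1 was higher and 12 lower. Over all genes, 0.400% were higher and 1.31% lower in 3 libraries, and 1.25% and 6.95% in 8. *Tac2*, the precursor of neurokinin B, and *Tac1*, that of substance P, had 0 UMIs in Agrp neurons and were at least 34.8-fold and 10.6-fold lower in the 8 libraries. *Oxt*, oxytocin, was lower by 6.28 ± 0.59 on the log2 scale, with 3 UMIs in 55 cells, and *Avp*, vasopressin, by 6.09 ± 0.40, with 12 UMIs. *Gal*, galanin, had 9 UMIs in 7 cells and a log2 fold change of -4.41 ± 0.58. The levels of *Avp* and *Oxt* in the other neurons ranged from 1338 to 12983 and from 140.0 to 3066 CPM between libraries. The 2 remaining genes with the most negative log2 fold changes under the naming rule mark blood and vessel cells, *Hba-a1*, a haemoglobin chain, and *Rgs5*, a pericyte gene.

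Peptide-processing genes went in both directions. Of 17 tested, *Pcsk1n* and *Resp18* were higher and *Cpe* and *Chga* lower in 3 libraries, with a list median of -0.63, and *Chgb* and *Scg2* were lower as well in 8. All genes gave 0.400% higher and 1.31% lower in 3 libraries and 1.25% and 6.95% in 8. *Pcsk1n*, which encodes proSAAS, an inhibitor of the prohormone convertase PC1/3, was found in all 55 Agrp neurons. Its level ran from 1575 to 5424 CPM, with a median of 4108, against 716 to 1394 in the other neurons, with no overlap, and its log2 fold change was 1.49 ± 0.22 in 3 libraries and 1.26 ± 0.14 in 8. *Resp18*, a secretory protein of neuroendocrine cells, was found in 54 of 55 and ran from 2084 to 4600.4 CPM, against 794 to 1539.6, with a log2 fold change of 1.20 ± 0.23 and 1.01 ± 0.14.

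Among the remaining named genes, *Arhgap6* and *Arhgap36*, which encode GTPase-activating proteins, had log2 fold changes of 2.28 ± 0.34 and 2.58 ± 0.48, *Rasgrp1*, a Ras exchange factor, 1.95 ± 0.51, and *Rgs2*, a regulator of G protein signalling, 1.83 ± 0.32. *Rgs2* and *Arhgap6* were higher in 8 of 8 libraries. The other genes were *Pgr15l*, *Fam159b*, *Plagl1*, *Dgkk*, *Pdlim5*, *Flrt3* and *Ociad2*, with log2 fold changes from 1.59 to 3.12, of which *Pdlim5* was higher in only 5 of 8 libraries.

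Of 23 imprinted genes tested, *Dlk1* and *Plagl1* were higher and *Nnat* lower in 3 libraries, with a list median of 0.12, and 6 were higher and 4 lower in 8. With library totals the counts were 6 higher and 1 lower in 3 libraries and 9 and 2 in 8. Over all genes, library totals gave 124 of 9507 higher and 125 lower in 3 libraries, and 231 and 338 of 8643 in 8. Under TMM, all genes gave 0.400% higher and 1.31% lower in 3 libraries, and 1.25% and 6.95% in 8. *Dlk1*, a Notch-related membrane protein, was found in 52 of 55 Agrp neurons and was higher in 8 of 8 libraries, by 1.46 ± 0.26 in 3 libraries and 0.99 ± 0.18 in 8. *Nnat*, neuronatin, had a log2 fold change of -2.72 ± 0.44 and was lower in 8 of 8.

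Immediate early genes, which rise with neuronal activity and with dissociation, gave 0 higher and 3 lower of 21 tested in 3 libraries, with a list median of -1.58, and 0 and 10 of 17 in 8, or 0 and 7 with library totals. Over all genes, 1.31% were lower in 3 libraries and 6.95% in 8, and with library totals 338 of 8643 were lower in 8. *Fos* was lower by 0.72 ± 0.18 in 8 libraries (edgeR adjusted p=0.0018) but was not called in 3 libraries or with library totals, and was found higher in 2 of 8 libraries and lower in 6.

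The lists of metabolism, channels and receptor subunits stand beside 0.400% of all genes higher and 1.31% lower in 3 libraries, and 1.25% and 6.95% in 8. With library totals, 124 of 9507 genes were higher and 125 lower in 3 libraries, and 231 and 338 of 8643 in 8. Of 20 endoplasmic reticulum chaperones 0 were called in either fit, and with library totals 1, *Ssr4*, was higher in 8 libraries. Of 77 nuclear genes of oxidative phosphorylation 0 were called in 3 libraries, with a list median of -0.14, and 2 were lower in 8, while with library totals 1 was higher in 3 libraries and 2 in 8. Of 19 glycolytic genes *Aldoc* and *Slc2a1* were lower in 3 libraries, and *Eno2* and *Pkm* as well in 8, where these 2 calls were lost with library totals. Of 29 channels *Cacna2d1* and *Kcnma1* were lower in 3 libraries. In 8 libraries *Kcnd2* and *Kcnip4* were lower as well, or *Cacna2d1* and *Kcnip4* alone with library totals, and the potassium channel *Kcnk2* was higher, by 0.996 ± 0.269. Of 34 GABA and glutamate receptor subunits 0 were higher and 3 lower in 3 libraries, and *Gabrq*, the theta subunit of GABA-A receptors, was higher in 8, by 1.17 ± 0.36, against 11 that were lower, or 4 with library totals.

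**Figure D5:**
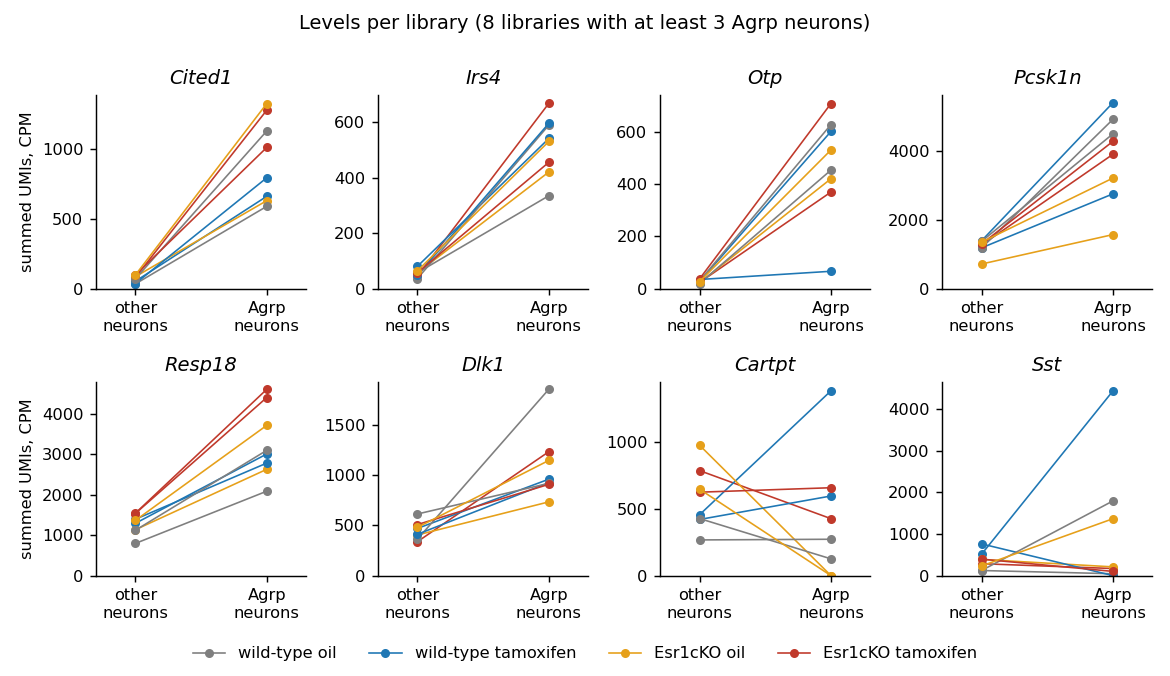
Each line joins the level of a gene (CPM of summed UMIs) in the other neurons and in the Agrp neurons of 1 of the 8 libraries with at least 3 Agrp neurons, coloured by group. *Cited1*, *Irs4*, *Otp*, *Pcsk1n*, *Resp18* and *Dlk1* are higher in Agrp neurons in all 8, while *Cartpt* and *Sst* run both ways.

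Agrp neurons were uneven among themselves in 2 further peptides. *Sst*, somatostatin, was at 0 in 36 of 55 cells and reached at least 3 UMIs in 9 cells from 7 libraries, with at least 10 in 5 cells and up to 46. The 5 highest cells held 84.2% of its 196 UMIs. Cells with at least 3 *Sst* UMIs were 16.4% of Agrp neurons and 2.30% of other neurons. The 9 cells had a median of 16 *Agrp* and 33 *Npy* UMIs, against 8.5 and 45 in the other 46. Their median depth was 5078 UMIs, against 3802, and these counts were not scaled to depth.

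Because of this unevenness the summed *Sst* level ran from 0 to 4446 CPM in Agrp neurons over the 8 libraries, and *Sst* was higher than in the other neurons in 3 libraries and lower in 5. Its log2 fold change was -1.32 ± 0.43 in 3 libraries, which was not called, and 0.91 ± 0.20 in 8 libraries, which was.

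*Cartpt*, the precursor of the CART peptide that is best known from *Pomc* neurons, was found in 20 of 55 Agrp neurons with 86 UMIs in all, and 8 cells from 4 libraries had at least 3. Over the 8 libraries its level in Agrp neurons was 272 and 125 CPM in wild-type oil, 1382 and 595 in wild-type tamoxifen, 0 and 0 in Esr1cKO oil and 426 and 657 in Esr1cKO tamoxifen mice. It was higher than in the other neurons of the same library in 4 libraries and lower in 4. The log2 fold change was -0.66 ± 0.31 in 3 libraries, which was not called, and -0.78 ± 0.21 in 8 (edgeR adjusted p=0.0066), which was called lower but not with library totals.

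Against *Pomc* neurons of the same library, only Esr1cKO tamoxifen replicates 1 and 3 had at least 5 cells of both kinds. In these 2 libraries 5 of 495 genes were higher in Agrp neurons (1.01%) and 8 lower (1.62%), and in the 5 libraries with at least 3 cells of both kinds 4 of 387 were higher (1.03%) and 8 lower (2.07%). With DESeq2 or with library totals, 0 genes were higher in the 2 libraries and *Cartpt* and *Gal* were the 2 lower ones. Without the 2 libraries that stand apart, the 4 remaining of the 5 gave 1 higher and 3 lower. The counts were 11 and 9 without wild-type tamoxifen replicate 1, 5 and 4 without Esr1cKO tamoxifen replicate 1 and 3 and 3 without Esr1cKO oil replicate 1.

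*Cartpt* was at 1382, 0, 0, 426 and 657 CPM in the Agrp neurons of the 5 libraries, in the order wild-type tamoxifen replicate 1, Esr1cKO oil replicates 1 and 3 and Esr1cKO tamoxifen replicates 1 and 3, and at 6189, 40246, 5478, 6774 and 15930.2 CPM in their *Pomc* neurons. The 2 ranges did not overlap, as for 2.33% of genes on the lower side, while 4.39% were lower in every library, and the log2 fold change was -4.22 ± 0.24 in 2 libraries (edgeR adjusted p=4.4e-10) and -4.48 in 5. *Calb1*, the calcium-binding protein calbindin, was at 120.2, 0, 44.2, 71.0 and 50.5 CPM against 640.3, 1153, 619, 568 and 613, again without overlap, with a log2 fold change of -3.08 ± 0.52 and -3.29. *Gal* was lower by 5.73 ± 0.59 on the log2 scale in 2 libraries and was not tested in 5.

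On the higher side, *Pcsk1n* was at 2764, 1575, 3225, 3919 and 4297 CPM in Agrp neurons and at 1707, 1116, 2074, 1589.5 and 1838 in *Pomc* neurons, with a log2 fold change of 1.28 ± 0.20 in 2 libraries and 0.91 in 5. It was higher in Agrp neurons of each library, as were 5.17% of genes, although the ranges overlapped. *Tmsb4x*, thymosin beta 4, was at 1502, 2415, 1148, 1590.2 and 1971 CPM against 213, 669.5, 495, 454 and 793, without overlap, as for 0.775% of genes, with a log2 fold change of 1.56 ± 0.32 and 1.60. *Cited1* was called only in the 5 libraries, at a log2 fold change of 1.06. Several genes that were higher against the other neurons were not called against *Pomc* neurons. *Resp18* was at 4100 CPM in Agrp and 3715 in *Pomc* neurons over the 5 libraries, a log2 fold change of -0.04 ± 0.19 (edgeR adjusted p=0.987). *Irs4* had 1.72 ± 0.58 in 2 libraries and 1.10 ± 0.36 in 5 (edgeR adjusted p=0.196 and 0.078), but was called higher in the 5 with library totals. *Plagl1* and *Fam159b*, tested in 2 libraries, had -0.68 ± 0.47 and -1.22 ± 0.45. The other calls in 2 libraries were *Arhgap6*, *Rgs2* and *Fos* on the higher side and *Rnf128*, *Vgf*, *Mesdc2*, *Chgb* and *Gpx3* on the lower side.

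Whether tamoxifen or the deletion changed Agrp neurons was tested over 8 libraries with at least 3 Agrp neurons, 2 per group, in 1 edgeR fit. Of 489 genes outside the rule 0 were called (0%) in each of the 5 contrasts. At an unadjusted p under 0.05 there were 7 (1.43%) for the tamoxifen effect in wild-type mice, 5 (1.02%) for that in Esr1cKO mice, 13 (2.66%) for the interaction, 13 (2.66%) for Esr1cKO against wild-type mice under oil and 6 (1.23%) under tamoxifen. DESeq2 also called 0 in each, with 2, 2, 2, 3 and 0 genes at an unadjusted p under 0.05. With 2 mice per group the SE of the 3 leading genes of a contrast ran up to 1.79 on the log2 scale. The count of 0 moved when libraries were left out. Without wild-type oil replicate 2, which leaves 1 mouse in that group, it became 11 for the tamoxifen effect in wild-type mice, 1 for that in Esr1cKO mice, 12 for the interaction, 12 for genotype under oil and 1 under tamoxifen, and without Esr1cKO tamoxifen replicate 1 it became 1, 6, 13, 1 and 5. Without wild-type oil replicate 3 it was 1 in each contrast, and without Esr1cKO tamoxifen replicate 3 it was 1 in the first and the fourth.

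*Cartpt* had the smallest p of both tamoxifen contrasts, without being called in this fit. With no filter on low counts it was called for tamoxifen in Esr1cKO mice (edgeR adjusted p=0.0254). In wild-type mice tamoxifen libraries were at 1382 and 595 CPM and oil libraries at 272 and 125, a log2 difference of 2.42 ± 0.68 (edgeR adjusted p=0.992). In Esr1cKO mice the tamoxifen libraries were at 426 and 657 CPM and the oil libraries held 0 UMIs in 7 Agrp neurons, so that the tamoxifen level was at least 5.11-fold higher against a floor of 3 UMIs over the group (edgeR adjusted p=0.356). The tamoxifen values lay above the oil values without overlap in both genotypes, as they did for 10.4% of the genes tested in wild-type and 14.9% in Esr1cKO mice. In wild-type tamoxifen replicate 1, 21 of the 23 *Cartpt* UMIs were in 1 cell. The Agrp neurons of libraries with under 3 such cells had *Cartpt* UMIs only in Esr1cKO tamoxifen replicate 4, with 2.

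The other genes with the 3 smallest p of a contrast were not called either. In wild-type mice they were *Gng3* and *Gpx3*, with log2 differences of tamoxifen from oil of 1.39 ± 0.54 and 1.23 ± 0.49, and in Esr1cKO mice *Tpr* and *Nenf*, with 2.98 ± 1.05 and 1.49 ± 0.56. Under oil, *Zc3h15* and *Ppp1r9a* differed between Esr1cKO and wild-type mice by -2.57 ± 0.85 and -1.48 ± 0.54, and *Cartpt*, at 272 and 125 CPM in wild-type mice and at 0 UMIs in the 7 Agrp neurons of Esr1cKO mice, was at least 2.10-fold lower in the latter against the floor of 3 UMIs (edgeR adjusted p=0.996). Under tamoxifen, *Sst* differed by -3.94 ± 1.36, with 4446 and 0 CPM in wild-type and 170.4 and 101 CPM in Esr1cKO mice, so that the difference rested on wild-type tamoxifen replicate 1. Without it the group is 1 library with 0 *Sst* UMIs in 4 Agrp neurons, and no lower level in Esr1cKO mice is seen. In this contrast *Sst* was called under some other settings, among them the fours of library numbers fitted as a term. *Dync1i2* and *2010204K13Rik* differed by -1.31 ± 0.48 and 2.59 ± 0.99, and the interaction was led by *Gpx3*, *Tpr* and *Pomp*, at -2.02 ± 0.67, 3.65 ± 1.38 and -2.64 ± 0.997.

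Of the genes that set Agrp neurons off from other neurons, *Cited1*, *Irs4* and *Otp* were present under all 4 conditions. *Cited1* was at 589 and 1129 CPM in wild-type oil, 661 and 794 in wild-type tamoxifen, 630.0 and 1325 in Esr1cKO oil and 1278 and 1011 in Esr1cKO tamoxifen mice. *Irs4* was at 589 and 334, 541 and 595, 420.0 and 530.1, and 667 and 455 CPM in the same order. *Otp* was at 453 and 627, 601 and 66.2, 420.0 and 530.1, and 369 and 708 CPM. No group lay apart from all the others for any of the 3 genes.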

How the data were processed

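The authors deposited 1 matrix of UMI counts (genes by barcodes) for each of 16 mice, as whole numbers without normalization and with replicates not pooled. The submitters' processing notes name STAR 2.6, Seurat 3.6.1 and mm10. Libraries were grouped by the treatment and genotype in the labels. Nothing in the labels says on which of the days of dissociation a library was made.

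The cell rule is given in the text. The members and the gene lists were chosen with earlier results of these data known. Counts were read with Python 3.11.15, numpy 2.4.6, scipy 1.17.1 and pandas 2.3.3, and doublets were called in each library with Scrublet (scanpy 1.11.5, expected rate 0.05) and left in except under an alternative setting. UMIs were summed per library over Agrp neurons, other neurons, *Pomc* neurons or all neurons. Sums were tested in edgeR 4.0.16 (R 4.3.3) with filterByExpr, TMM normalization, glmQLFit and glmQLFTest, two-sided, with Benjamini-Hochberg adjustment over all genes tested and a threshold of 0.05. The library was a block in the comparisons between cell types. For the conditions, the planned minimum of 5 Agrp neurons per library left 2 of the 4 groups without a library, so at least 3 was required instead. Shares of cells were compared by exact permutation tests over mice. The deposited mice are separate animals, so the permutation p-values measure the spread between mice. The edgeR p-values rest on a spread shared over all genes tested, almost wholly so in the comparison with other neurons. They do not rest on each gene's own spread between a few mice.

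The genes named against other neurons were the 20 highest and 8 lowest log2 fold changes past the threshold, with at least 20 UMIs seen (or expected, for lower genes) and the same direction in every library tested, and against *Pomc* neurons 8 and 8 by the same rule. For the conditions they were the 3 smallest p-values of each contrast, named as not called. Members of the gene lists were named in addition. Other genes were chosen after their values were seen. A few genes that the counts include are not reported here by name.

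Library sums of a few cells hold many zeros, so depth limits the precision of each value. The test scripts were tested on simulated data. Gene positions are those of RefSeq for GRCm38.p6, the build named mm10. The alternatives were DESeq2 1.42.0, its size factors in edgeR, no filter on low counts, other minimums of Agrp neurons, removal of called doublets, over 500 genes per cell, under 5% mt- UMIs, at least 10 *Agrp* UMIs, GABAergic neurons or neurons with at least 1000 UMIs as the comparator, Esr1cKO or wild-type libraries alone, the fours of library numbers as a term and leaving out libraries. Those added after seeing the data were a minimum of 1 Agrp neuron, library totals in place of TMM and combinations with the minimum of 3. Figures were drawn with matplotlib 3.10.9.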

Additional observations from a re-analysis of the deposited data

Results flagged for a closer look

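Of 18 sets of group values tested for a single library far from the rest, 2 were picked out, and chance picks out about 1 in 20. *Npy* over all neurons in Esr1cKO tamoxifen replicate 1 was at 749.7 CPM, far from the 107, 189 and 174 of the other libraries of its group. This is the library with 20 of the 55 Agrp neurons.

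The share of *Agrp* UMIs that lay in barcodes removed by the cell filter was 76.3% in Esr1cKO tamoxifen replicate 4, far above the other libraries of its group. There, 147 of 198 *Agrp* UMIs were in 1 barcode over the upper limit on genes. Single barcodes over that limit also held 33 of 56 *Agrp* UMIs in wild-type tamoxifen replicate 5, and 39 and 12 *Agrp* UMIs in Esr1cKO oil replicates 3 and 1. The part of these barcodes in the shares of Agrp neurons was not tested.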

How the results depend on the processing

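Beside the 38 higher and 125 lower genes against other neurons, the whole counts under other settings were as follows. DESeq2 called 22 and 29, a minimum of 3 Agrp neurons 108 and 601, and a minimum of 1 gave 1443 lower. With under 5% mt- UMIs 58 were lower, and without the 2 libraries that stand apart 83. Library totals gave 124 higher, the GABAergic comparator 61 higher and 69 lower. At a minimum of 3, DESeq2 size factors gave 83 and 762, library totals 231 and 338, leaving out the libraries that stand apart 380 lower, leaving out the largest 696 lower, at least 10 *Agrp* UMIs 16 and 65, wild-type libraries alone 26 and 180 and Esr1cKO libraries alone 35 and 176. Leaving out each library gave 7 to 34 higher and 38 to 83 lower.

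Beside the 5 higher and 8 lower genes against *Pomc* neurons, DESeq2 and library totals each called 0 and 2, DESeq2 size factors 8 higher, no filter 3 and 4, a minimum of 1 Agrp neuron 2 and 3, and doublet removal 8 higher. At a minimum of 3, library totals gave 8 higher, leaving out the libraries that stand apart 1 and 3, leaving out the largest 4 lower, at least 10 *Agrp* UMIs 7 and 8, under 5% mt- UMIs 0 and 1 and Esr1cKO libraries alone 11 and 9. Leaving out each library there gave 1 to 11 higher and 3 to 9 lower. The causes of these changes were not tested.

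Within Agrp neurons, where 0 genes were called in each contrast, 1 was called with no filter in each contrast but the interaction. With under 5% mt- UMIs, and likewise without the 2 libraries that stand apart, 2 were called for tamoxifen in wild-type mice, 2 for genotype under oil, 1 for the interaction and 1 for genotype under tamoxifen, with *Sst* among them each time. The fours of library numbers as a term gave 1, *Sst*, for genotype under tamoxifen. Leaving out each library gave 0 to 11 for tamoxifen in wild-type and 0 to 6 in Esr1cKO mice, 0 to 13 for the interaction, and 0 to 12 and 0 to 5 for genotype under oil and tamoxifen. Where 1 library of a group remained, it was assumed to vary like the other groups.

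The share of Agrp neurons in wild-type mice changed sign with at least 10 *Agrp* UMIs, to a difference of 0.0179 percentage points. Leaving out each library moved the 4 differences within -0.53 to -0.24 and 0.0714 to 1.02 for tamoxifen in wild-type and Esr1cKO mice, and within -0.56 to -0.27 and 0.0471 to 0.997 for genotype under oil and tamoxifen. Over all neurons, the log2 difference for tamoxifen in wild-type mice changed sign without the 2 libraries that stand apart, to 0.19 for *Agrp* and 0.12 for *Npy*. For genotype under oil it became 0.0234 and 0.13 with under 5% mt- UMIs, and 0.40 and 0.62 without those libraries. Leaving out each library gave -1.50 to 0.19 and -1.07 to 0.14 for tamoxifen in wild-type mice, and -1.75 to 0.38 and -0.65 to 0.64 for genotype under oil, for *Agrp* and *Npy*. It gave 0.84 to 2.70 and 0.13 to 1.52 for tamoxifen in Esr1cKO mice, 1.60 to 3.70 and 0.80 to 2.19 for the interaction, and 0.99 to 2.47 and 0.61 to 1.90 for genotype under tamoxifen.

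No paired analysis was possible by replicate number because the labels give the groups none in common. By the study's methods the 4 groups were run side by side over 4 days with 4 mice a day, and the labels do not give the day of a library. The fours of library numbers, of which the first 3 each held 1 library of every group, were therefore fitted as a term. As a term they moved the tamoxifen difference in wild-type mice over all neurons to -0.53 for *Agrp* and -0.27 for *Npy*. Comparisons between cell types already had the library as a block. A minimum of 10 Agrp neurons left 1 library and was not run. At the minimum of 5, under 2 libraries were left for at least 10 *Agrp* UMIs, for wild-type mice alone and, against *Pomc* neurons, for under 5% mt- UMIs or 1 library less, so these were run at the minimum of 3. For the conditions, at least 10 *Agrp* UMIs left both wild-type groups without a library at that minimum and was not run. A limit is the number of cells and mice: 55 cells, 36.4% of them from 1 mouse, and 2 mice per group for the conditions.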

Other observations

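Further values of single genes in Agrp neurons are given here as descriptions. *Gm8773* was found in 5 of 55 Agrp neurons with 11 UMIs. The receptor gene *Glp1r*, for the incretin GLP-1, was found in 4, with 1 UMI each, and *Corin*, a serine protease, in 2. *Trh*, thyrotropin-releasing hormone, had 2 UMIs in 1 cell. Of the 9 cells with at least 3 *Sst* UMIs, 3 had *Cartpt* and 4 had *Calcr*. *Gabrq* was found in 25 of 55 Agrp neurons, and after thinning in 11.5%, against 5.36% of other neurons.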
